A study of Sus scrofa with 43 samples.

Results

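This section describes the MHC class I presentation genes of the piglet jejunum: the pig class I heavy chains SLA-1, SLA-2 and SLA-3, their light chain B2M, the peptide transporter and loading genes TAP1, TAP2 and TAPBP, and the immunoproteasome subunits PSMB8 and PSMB9. A spot was taken as a member when its transcript accession, without the version, was a pig RefSeq transcript of 1 of these 9 symbols. By this rule 6 of the 9 symbols had a probe, with 18 of the 43803 gene spots of the array. SLA-3 (NM_001097427) had 7 probes, PSMB8 (NM_213935) had 3, and B2M (NM_213978), TAP1 (NM_001044581), TAP2 (NM_001206441) and PSMB9 (NM_001037961) had 2 each. SLA-1, SLA-2 and TAPBP were not measured under the rule. All 6 accessions passed the filter on dim genes, which left 12771 of the 35884 accessions on the array.

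MHC class I molecules carry peptides of proteins made inside the cell to its surface, where CD8 T cells and natural killer cells read them. The proteasome cuts the proteins, the TAP1 and TAP2 heterodimer pumps the peptides into the endoplasmic reticulum, tapasin holds the empty class I molecule at the pump, and the heavy chain leaves for the surface only once peptide and beta-2-microglobulin are bound. PSMB8 and PSMB9 replace catalytic subunits of the standard proteasome, and most genes of this machinery are known targets of interferon signalling. TAP2, PSMB8, TAP1 and PSMB9 lie next to each other in that order in the Sscrofa11.1 gene table, within the MHC class II region, while B2M lies outside the MHC.

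Jejunal scrapings of 43 male Hypor piglets were each measured on 1 one-color Agilent array, 1 piglet per sow at each age. Control sows received standard gestation and lactation feed, and sows of the other arm received the same feed topped with amoxicillin, a beta-lactam antibiotic, at 15 mg per kg body weight daily from the week before expected farrowing until farrowing. The piglets themselves were not treated. For the 5 ages, day 1, day 7, weaning, 4 d postweaning and 4 wk postweaning, the control arm held 6, 6, 3, 5 and 3 arrays, and the amoxicillin arm held 4 each. All values below are normalized log2 intensities or differences between them, and levels are compared within a gene only, since probes differ in brightness for the same amount of RNA. Scrapings hold a mixture of cells, so fewer cells of a type and less RNA per cell cannot be told apart.

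The brightness of some members limited what could be measured. The scanner saturates at a fixed intensity, and a saturated spot gives only a lower bound. Both B2M probes were saturated on 41 of 43 arrays, so no course over age can be read for this gene. At least 1 SLA-3 probe was saturated on 42 arrays, and the share of saturated SLA-3 spots went from 22.9% (day 1) over 45.7% (day 7) and 57.1% (weaning) to 74.6% (4 d postweaning) and 77.6% (4 wk postweaning). No PSMB9 spot was saturated up to weaning, but 16 of 18 were at 4 d postweaning and 11 of 14 at 4 wk postweaning. TAP1, TAP2 and PSMB8 were never saturated. Values of PSMB9 past weaning are therefore held down by the ceiling, and for SLA-3 part of the probes lay at the ceiling on both sides of each comparison. The arrays carried 285 to 796 saturated gene spots and 15937 to 29827 gene spots well above background. The arms stood apart in the latter: the median number per age was 26318 to 28974.5 in the control arm and 17214 to 24228.5 in the amoxicillin arm, lowest at 4 wk postweaning. Both TAP1 probes were well above background on 41 of 43 arrays, and all probes of the other members on all 43. Pig class I heavy chain genes are near-identical in much of their sequence, so the SLA-3 probes may also bind transcripts of other class I genes, and their values are uncertain as to which gene they measure.

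The tissue label was checked against cell type markers. All 6 enterocyte markers with a probe (ANPEP, APOA1, APOA4, FABP1, FABP2 and SLC5A1) lay above the filter threshold on all 43 arrays, with a summed linear intensity of 278467 to 364854 at every age but weaning. At weaning it ran from 128021 to 344304. APOA1, APOA4, FABP1 and FABP2 lay near the scanner's ceiling at their medians, which bounds these sums from above. A pair of weaning arrays stood apart: the summed intensity of the B cell markers CD79A and MS4A1 was 33486.5 in amoxicillin piglet 8 and 25305 in control piglet 7, against at most 1905 on any other array. Amoxicillin piglet 8 also had the lowest enterocyte sum. Without this pair the calls of members across weaning and between the arms at weaning were the same, and the rise of PSMB8 from day 7 to weaning and part of the calls in the gene lists were lost, as given beside them. By the slot number in the scan names, taken here as the slide, the 43 arrays lay on 6 slides. Of these, 3 held control and 3 held amoxicillin piglets only. Slide and treatment therefore cannot be told apart, whereas neighbouring ages of an arm shared slides in part.

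Averaged over the probes of each gene, class I presentation genes other than B2M were higher after weaning than at birth in both arms. In limma's moderated F-test over the 5 ages, 5 of the 6 members differed between ages at an adjusted p under 0.05 in the control arm, where 30.5% of all genes tested did, and 5 of 6 in the amoxicillin arm, where 47.0% did. The 5 were SLA-3, TAP1, TAP2, PSMB8 and PSMB9 in each arm. From day 1 to 4 wk postweaning, as the mean of both arms, the same 5 rose, beside 19.1% of all genes tested that rose. Their differences ran from 0.94 for TAP2 to 2.60 for TAP1, and the median over the 3 members that were never saturated was 2.32 against -0.09 over all genes. These calls depend on how the slides are treated: with the slide as a fixed block the F-tests called 0 members in the control arm and 1 in the amoxicillin arm, and TAP1 alone was called over the whole span. In that fit the control F-test also called far fewer of all genes, as given below. The other shares of all genes are not given, so these counts are no result particular to the members. In 4 of the 6, namely SLA-3, TAP1, PSMB8 and PSMB9, every array at 4 wk postweaning lay above every array at day 1. The share of all genes tested whose ages separate in this way was not counted, here or below.

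**Figure D1:**
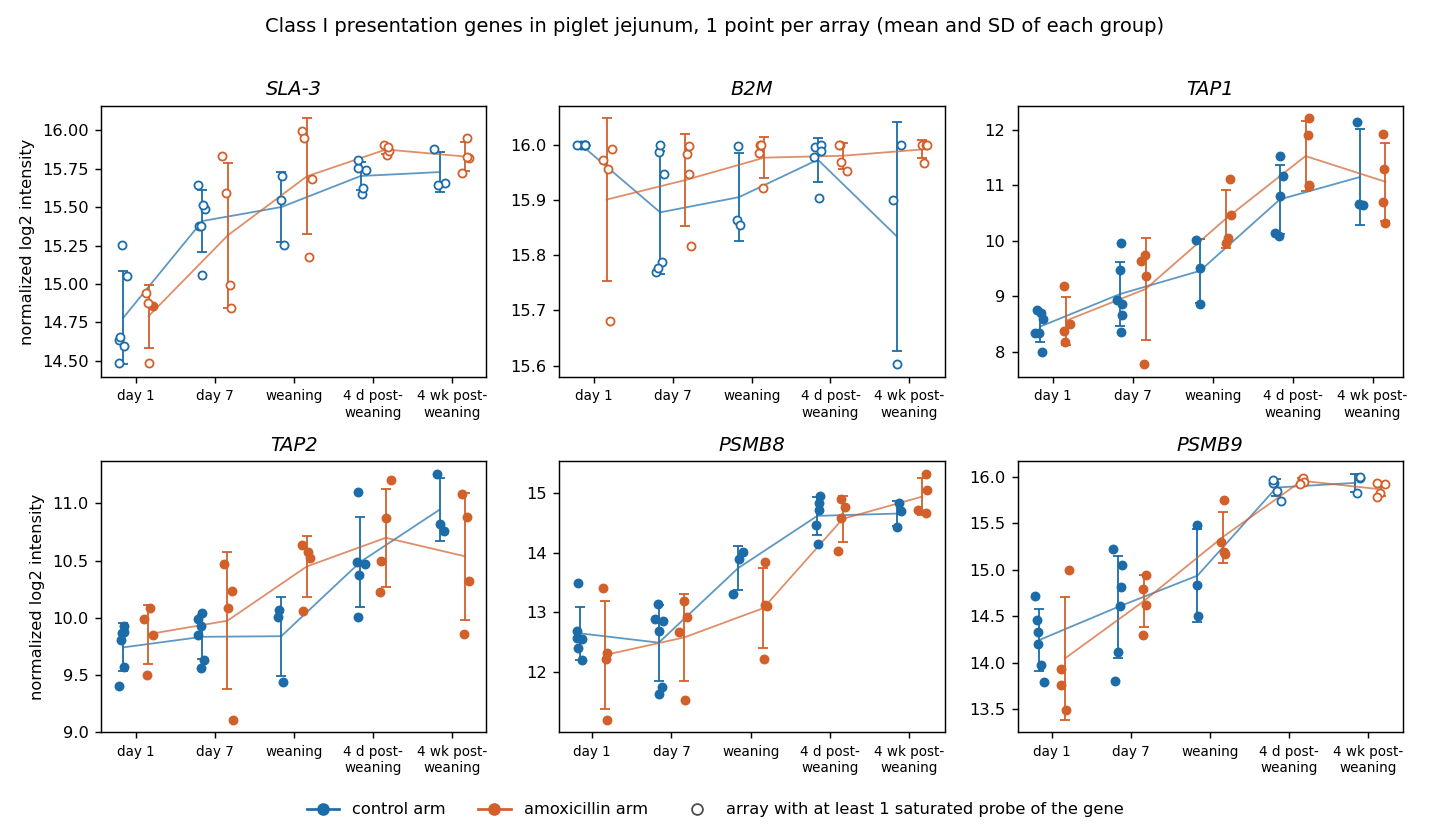
Normalized log2 intensity (vertical axis) of the 6 class I presentation genes with a probe at 5 ages, 1 point per array, with the mean and SD of each group in blue (control) and orange (amoxicillin). Open points are arrays on which at least 1 probe of the gene was saturated. TAP1, TAP2 and PSMB8 have no open point, PSMB9 has them only after weaning, and B2M lies at the scanner's ceiling at every age.

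The course was not even. The steps differ in length, from 4 d across weaning to weeks just before and after it, and rates per day were not compared. From day 1 to day 7 SLA-3 passed the test and rose by 0.58, where 2.01% of all genes tested rose. TAP1 differed by as much in that step (0.58, SE 0.27, adjusted p = 0.329) without passing. From day 7 to weaning PSMB8 passed (5.69% of all genes rose), with 0.87 against an uncalled 0.84 for TAP1. Whether members differed from each other in a step was not tested. From weaning to 4 d postweaning 3 members, TAP1, PSMB8 and PSMB9, rose (6.19% of all genes). From 4 d to 4 wk postweaning no member changed at an adjusted p under 0.05, where 694 of the 12771 genes tested changed in either direction and 1.51% rose. None of the 6 had an unadjusted p under 0.05, and in the 3 members that were never saturated the differences ran from -0.03 for TAP1 to 0.20 for PSMB8. The medians over these 3 members were 0.11, 0.84, 1.18 and 0.15 for the 4 steps, against 0.03, 0.01, -0.03 and -0.09 over all genes tested. SLA-3 and PSMB9 were mostly at the ceiling at both ages of the last step, so their small differences there carry little information.

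**Figure D2:**
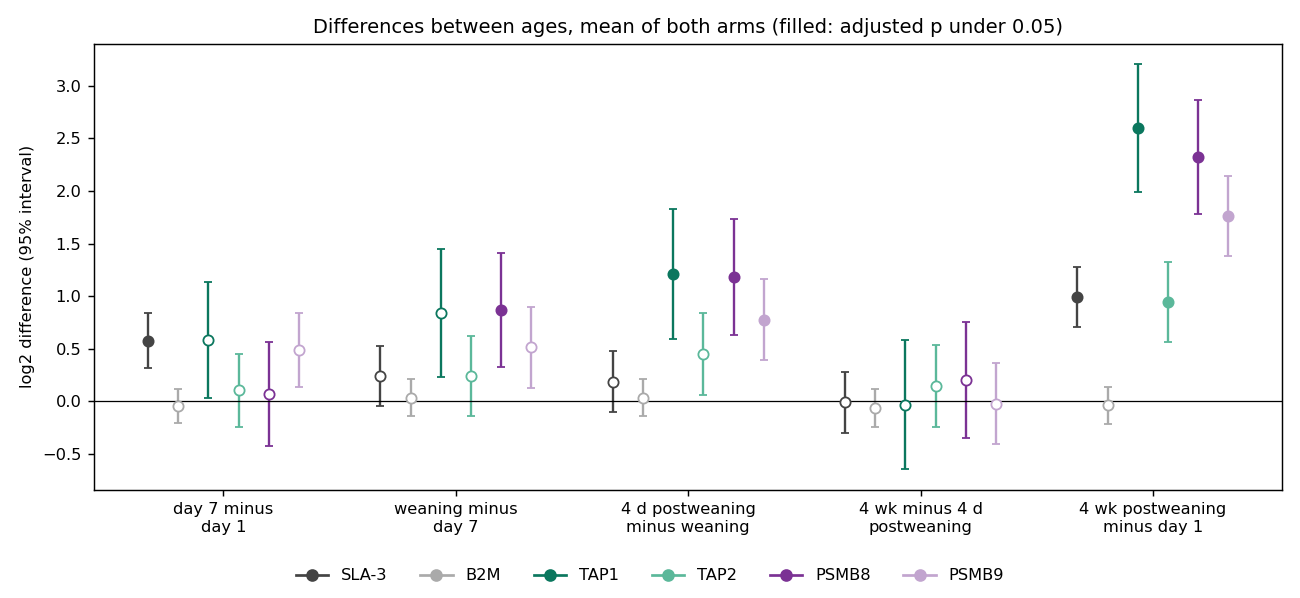
Differences in log2 intensity between ages (vertical axis) for each of the 6 members, as the mean of the control and amoxicillin arms, with 95% intervals from limma. Filled points passed an adjusted p of 0.05. The filled points of the 4 single steps are SLA-3 at the first, PSMB8 at the second and TAP1, PSMB8 and PSMB9 at the third, and 5 members are filled over the whole span.

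TAP1, the first subunit of the peptide pump, had the largest rise of the 3 never saturated members in the mean of both arms. In the amoxicillin arm alone PSMB8 rose further (2.645 against 2.505). In control piglets its log2 intensity was 8.01 to 8.76 at day 1 (median 8.47), 8.36 to 9.96 at day 7 (median 8.90), 8.86, 9.51 and 10.02 at weaning, then 10.09, 10.15, 10.81, 11.16 and 11.53 (4 d postweaning), and 10.64, 10.67 and 12.14 (4 wk postweaning). In piglets from amoxicillin-treated sows the day 1 arrays read 8.18, 8.38, 8.51 and 9.18, the day 7 arrays 7.77, 9.37, 9.64 and 9.75, and the weaning arrays 9.95, 10.05, 10.47 and 11.12. After weaning these piglets read 10.99, 11.002, 11.92 and 12.21 (4 d) and 10.33, 10.71, 11.30 and 11.93 (4 wk). All 16 arrays after weaning lay above all 10 arrays of day 1, while weaning overlapped with both its neighbours. The mean of both arms was 6.06-fold higher at 4 wk postweaning than at day 1 (log2 difference 2.60, SE 0.30, adjusted p = 9.55e-09), and 2.31-fold higher at 4 d postweaning than at weaning (log2 difference 1.21, SE 0.30, adjusted p = 0.00761, limma). Its rise before weaning was not called: from day 7 to weaning the difference was 0.84 (SE 0.30, adjusted p = 0.0605), and it passed the threshold without control piglet 22 or amoxicillin piglet 20 at day 7, or without control piglet 25 at weaning (0.93, 0.94 and 0.99). Without the pair of weaning arrays with many B cell transcripts it was 0.90 (adjusted p = 0.0972). The 2 TAP1 probes gave 1.13 and 1.29 across weaning and 2.28 and 2.91 over the whole span. At day 1 the first had means of 7.12 (control) and 7.27 (amoxicillin), below the filter threshold of 7.68. Its rise therefore starts near the floor. The second had 9.79 and 9.86.

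TAP2, the other subunit of the pump, rose less. Over both arms its log2 intensity ran from 9.40 to 10.09 at day 1 (median 9.86), 9.11 to 10.47 at day 7 (median 9.96), 9.44 to 10.63 at weaning (median 10.07), 10.01 to 11.20 at 4 d postweaning (median 10.49), and 9.86 to 11.26 at 4 wk postweaning (median 10.82). Day 1 overlapped with every later age. The difference between 4 wk postweaning and day 1 was 0.94 (SE 0.19, adjusted p = 1.02e-04), a 1.92-fold rise, and no single step passed the threshold (largest 0.45 across weaning, adjusted p = 0.108, and 0.37 without the pair of weaning arrays that stood apart, adjusted p = 0.22, limma). The whole span was 1.21 in control piglets and 0.68 in piglets from amoxicillin-treated sows. In the amoxicillin arm the F-test was close to the threshold (adjusted p = 0.0259), and the call was lost without amoxicillin piglet 17 at day 1 (0.066) or without piglet 10 or 32 at 4 d postweaning (0.0596 and 0.0503), with scaling by the 75th percentile (0.0618), with array weights (0.051) and with the slide as random block (0.188). The 2 probes of TAP2 did not move alike. One rose by 0.61 across weaning and 1.21 over the whole span, and the other by 0.29 and 0.68, as the mean of both arms. In the amoxicillin arm the second did not rise, with means of 10.41 at day 1 and 10.34 at 4 wk postweaning. Its control means were 9.59 and 11.02. The first went from 9.30 to 10.73 in the amoxicillin arm and from 9.89 to 10.87 in the control arm.

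PSMB8, an immunoproteasome subunit that replaces a catalytic subunit of the standard proteasome, rose in both steps around weaning. In control piglets its log2 intensity was 12.20 to 13.49 at day 1 (median 12.56), 11.64 to 13.14 at day 7 (median 12.77), 13.31, 13.90 and 14.002 at weaning, then 14.14, 14.45, 14.70, 14.83 and 14.94 (4 d postweaning), and 14.43, 14.70 and 14.83 (4 wk postweaning). In the amoxicillin arm the day 1 arrays read 11.21, 12.22, 12.32 and 13.41, the day 7 arrays 11.54, 12.68, 12.92 and 13.19, and the weaning arrays 12.22, 13.10, 13.12 and 13.85. After weaning that arm read 14.03, 14.57, 14.76 and 14.89 (4 d) and 14.66, 14.71, 15.05 and 15.32 (4 wk). PSMB8 was the only member whose arrays at 4 d postweaning (lowest 14.03) all lay above those at weaning (highest 14.002). The difference was 0.07 from day 1 to day 7 (SE 0.25, adjusted p = 0.957), 0.87 from day 7 to weaning (SE 0.27, adjusted p = 0.031), 1.18 from weaning to 4 d postweaning (SE 0.27, adjusted p = 0.00431) and 2.32 over the whole span (SE 0.27, adjusted p = 1.09e-08, limma), the last a 5.00-fold rise. All 3 PSMB8 probes gave 1.02 to 1.27 across weaning.

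The rise of PSMB8 up to weaning was the least stable call. It was lost without control piglet 4 or 19 or amoxicillin piglet 4 at day 7, and without control piglet 7 or 24 or amoxicillin piglet 8 or 29 at weaning (differences 0.69 to 0.86, adjusted p from 0.0511 to 0.0883). Without both weaning arrays with many B cell transcripts it was 0.82 with an adjusted p of 0.0956. In each arm the step was 1.24 (control) and 0.49 (amoxicillin).

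PSMB9, another immunoproteasome subunit, reached the scanner's ceiling after weaning, and neither step before it passed the test. Over both arms its log2 intensity ran from 13.49 to 15.00 at day 1 (median 14.09), 13.80 to 15.22 at day 7 (median 14.70) and 14.50 to 15.76 at weaning (median 15.19), with no saturated spot. After weaning it lay between 15.74 and 16.00 on all 16 arrays, nearly all of them saturated. The steps before weaning were 0.49 (SE 0.17, adjusted p = 0.121) and 0.51 (SE 0.19, adjusted p = 0.0694), the latter 0.57 without the pair of weaning arrays that stood apart (adjusted p = 0.0957). The first passed the threshold without control piglet 4 at day 7 (0.57) or amoxicillin piglet 18 at day 1 (0.65), and the second without control piglet 22 at day 7 (0.58), control piglet 25 at weaning (0.62) or amoxicillin piglet 18 at day 1 (0.51). The measured intensity of PSMB9 was 1.71-fold higher at 4 d postweaning than at weaning (log2 difference 0.78, SE 0.19, adjusted p = 0.00664) and 3.38-fold higher at 4 wk postweaning than at day 1 (1.76, SE 0.19, adjusted p = 2.03e-09, limma). The step across weaning was not called when each array was scaled by its 75th percentile instead of by quantiles (0.61, adjusted p = 0.0973) or with the scanner's processed signal (0.62, adjusted p = 0.102).

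SLA-3, the class I heavy chain among the members with a probe, passed the test in the first week. The mean of its 7 probes ran from 14.48 to 15.26 at day 1 (median 14.76), 14.85 to 15.83 at day 7 (median 15.43), 15.17 to 16.00 at weaning (median 15.69), 15.59 to 15.90 at 4 d postweaning (median 15.81) and 15.65 to 15.95 at 4 wk postweaning (median 15.82). Day 7 overlapped with day 1, and all arrays after weaning lay above all arrays of day 1. The measured intensity was 1.49-fold higher at day 7 than at day 1 (log2 difference 0.58, SE 0.13, adjusted p = 0.0054) and 1.99-fold higher at 4 wk postweaning than at day 1 (0.99, SE 0.14, adjusted p = 5.29e-07, limma). The first step was not called with scaling by the 75th percentile (0.52, adjusted p = 0.104) or with the processed signal (0.51, adjusted p = 0.126), nor was the F-test over the ages in the control arm (adjusted p = 0.127 and 0.113). Under the same scalings the uncalled step across weaning changed from 0.19 to -0.17 and -0.11.

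The SLA-3 probes showed how saturation bounds this gene. Probe A_72_P517623, saturated on 3 of 43 arrays, gave 1.12 from day 1 to day 7 (adjusted p = 0.008 with 1 value per probe name), 0.33 to weaning, 0.40 to 4 d postweaning and 1.76 over the whole span. None of its 3 saturated arrays was of day 1 or day 7. Probe A_72_P440386, saturated on 12 arrays, gave 0.70, 0.51, 0.47 and 1.73. In control piglets A_72_P517623 had a mean log2 intensity of 13.28 ± 0.24 (SD, n = 6) at day 1, 14.16 ± 0.37 (n = 6) at day 7, 14.16 ± 0.68 (n = 3) at weaning, 14.74 ± 0.39 (n = 5) at 4 d postweaning and 14.79 ± 0.76 (n = 3) at 4 wk postweaning. In piglets from amoxicillin-treated sows the means were 13.22 ± 0.81, 14.57 ± 0.91, 15.24 ± 0.75, 15.47 ± 0.16 and 15.24 ± 0.60 (n = 4 each). The first week held the largest step of this probe's means in both arms. Probes A_72_P515992 and A_72_P649741, saturated on 36 and 42 arrays, gave 0.09 and -0.01 over the whole span, which carries no information on the transcript. With the accession represented by A_72_P517623 alone, a choice made after seeing the data, the rise to day 7 was 1.12 (adjusted p = 0.00792) and the whole span 1.76 (adjusted p = 4.39e-06).

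**Figure D3:**
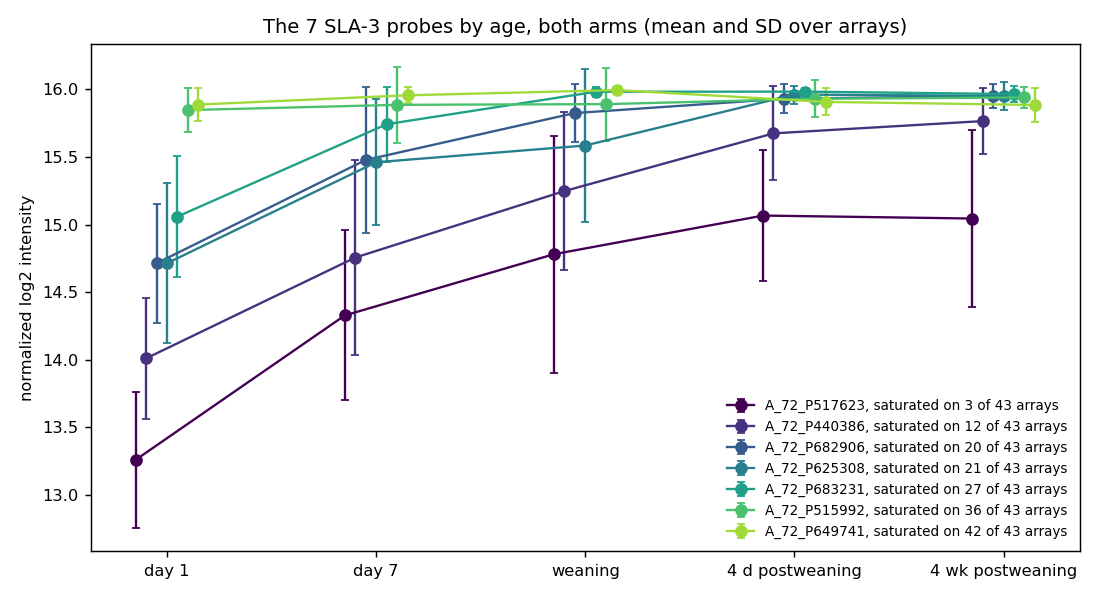
Mean log2 intensity (vertical axis) with SD over arrays of both arms for the 7 SLA-3 probes at 5 ages (horizontal axis), darkest for the probe saturated on the fewest arrays. The probe saturated on 3 arrays rises from day 1 to 4 d postweaning, and the probes saturated on 36 and 42 arrays stay at the ceiling at all ages.

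B2M, the light chain shared by all class I molecules, lay between 15.60 and 16.00 on all arrays. Its spots were saturated at all ages, 19 of 20 at day 7, 13 of 14 at weaning and all spots at the other ages, and no fold is given for it.

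The step across weaning was also seen between arrays of the same slide. On the control slide with 3 weaning arrays and 1 array of 4 d postweaning, the later age was higher by 2.07 for TAP1, 0.72 for PSMB8 and 1.00 for PSMB9. That 1 array, control piglet 10, was the highest of its group for TAP1 (11.53 against 10.09 to 11.16). For PSMB8 it lay inside its group (14.45, in a range of 14.14 to 14.94). On the amoxicillin slide with 4 and 3 such arrays it was higher by 1.31, 1.67 and 0.62. With the slide as a fixed block in limma all 3 calls across weaning held (TAP1 1.69, adjusted p = 0.0138, PSMB8 1.19, adjusted p = 0.0398, and PSMB9 0.81, adjusted p = 0.0415). Apart from the control F-test below, the shares of all genes called in this fit are not given, so its counts describe the members alone. No slide held both day 1 and 4 wk postweaning, and over that span TAP1 alone was called in this fit (2.96, adjusted p = 0.00831), with 1.92 for PSMB8 (adjusted p = 0.0534), 1.25 for PSMB9 (0.0689), 0.72 for TAP2 (0.44) and 0.68 for SLA-3 (0.284). The earlier calls were lost as well: SLA-3 differed by 0.44 between day 7 and day 1 (adjusted p = 0.274; 0.44 and 0.43 within the shared slides of the arms) and PSMB8 by 0.62 between weaning and day 7 (adjusted p = 0.341; 0.85 and 0.40 within slides). In the F-tests over the 5 ages with the block, the adjusted p of the 5 members ran from 0.271 for PSMB8 to 0.864 for SLA-3 in the control arm, where 0.532% of all genes were called, and PSMB8 alone was called in the amoxicillin arm (adjusted p = 0.0122). Without the pair of weaning arrays with many B cell transcripts, the step across weaning was 1.15 for TAP1 (adjusted p = 0.0169), 1.23 for PSMB8 (0.00563) and 0.72 for PSMB9 (0.0168).

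The question of the study was what maternal amoxicillin changed in the offspring. At a log2 difference beyond 1.5 and an adjusted p under 0.05, limma called 0 of the 6 members at day 1 (0.211% of all genes tested were called), 0 at day 7 (0%), 0 at weaning (3.41%), 0 at 4 d postweaning (1.54%) and 0 at 4 wk postweaning (2.13%). Without the fold threshold the count was 0 at every age too, and of 30 differences 2 had an unadjusted p under 0.05, TAP1 and TAP2 at weaning. TAP1 was higher by 0.94 in piglets from amoxicillin-treated sows at weaning (95% interval 0.01 to 1.86, adjusted p = 0.217), with 3 of 4 amoxicillin arrays above the highest control array. TAP2 was higher by 0.61 at weaning (0.03 to 1.19, adjusted p = 0.197), again with 3 of 4 arrays above the highest control array. Without the pair of weaning arrays with many B cell transcripts TAP1 differed by 1.11 (adjusted p = 0.231) and TAP2 by 0.37 (adjusted p = 0.568). PSMB8 lay the other way at weaning, at -0.67 (-1.50 to 0.16, adjusted p = 0.353), and at -0.60 without the pair (adjusted p = 0.518). At 4 d postweaning TAP1 differed by 0.78 (-0.03 to 1.59, adjusted p = 0.393).

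At day 1 and day 7 the differences lay between -0.36 (PSMB8 at day 1) and 0.14 (TAP2 at day 7), with intervals that reached no further than -1.07 and 0.89. At 4 wk postweaning they lay between -0.41 for TAP2 and 0.28 for PSMB8. The 2 TAP2 probes gave opposite signs at day 1, 0.82 and -0.59, and neither was called. The values of SLA-3 and PSMB9 after weaning, and of B2M at all ages, are bounded by the ceiling. With A_72_P517623 alone, SLA-3 was higher by 1.08 in the amoxicillin arm at weaning (adjusted p = 0.117). Whether the treatment difference changed with age was tested with an F-test over the 5 contrasts: 0 of 6 members were called (6.18% of all genes tested were), 0 had an unadjusted p under 0.05, and the smallest adjusted p was 0.512 for TAP2. The median number of spots well above background was lower in the amoxicillin arm at every age, and its part in these differences was not tested. These p-values do not show that the arms were equal, and the intervals above give the sizes that the data leave possible.

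**Figure D4:**
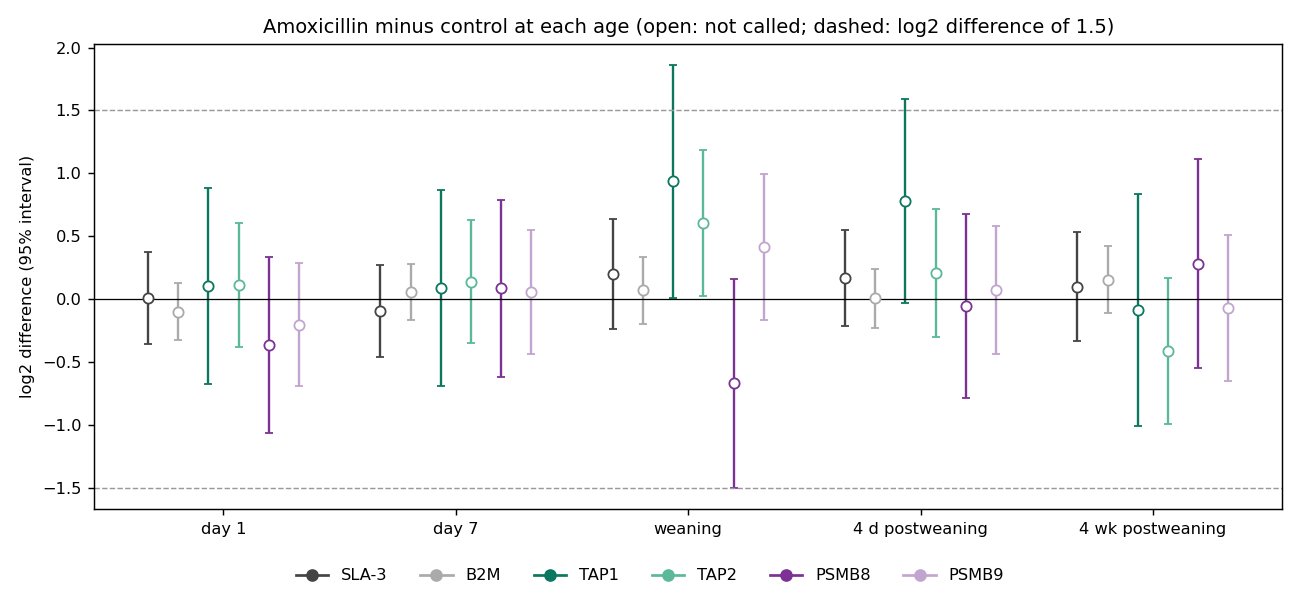
Difference in log2 intensity between piglets from amoxicillin-treated and control sows (vertical axis) for each of the 6 members at 5 ages, with 95% intervals from limma. The dashed lines mark a log2 difference of 1.5, and all points are open because none was called. The interval of TAP1 at weaning, from 0.01 to 1.86, reaches furthest above 0.

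Other genes of class I presentation were read from lists. Of 10 other class I heavy chain symbols, 4 had a probe and 3 were tested. SLA-5, SLA-6 and SLA-8 were all higher at 4 wk postweaning than at day 1, by 1.43, 0.91 and 1.09 (adjusted p = 1.97e-04, 0.0188 and 0.00439), and none passed in a single step. They share sequence with SLA-3 and with each other, so their probes are uncertain in the same way. PSMB10, the third subunit particular to the immunoproteasome, rose by 0.79 across weaning (adjusted p = 0.00333; 0.47 without the pair of weaning arrays that stood apart, adjusted p = 0.0341) and 0.94 over the whole span, and PSME1 and PSME2, which form the proteasome activator PA28, rose by 0.79 and 0.67 over the whole span (adjusted p = 6.57e-04 and 0.00343). Over the whole span 4 of 11 other proteasome genes rose, 1 fell (PSMB3, by 0.88) and 6 did not pass, with a median of 0.25. Across weaning 4 of 11 rose, PSMB10, PSMA5, PSMA6 and PSME3, and 7 did not pass, with a median of 0.31. The same 4 passed without the pair. PSME3, a nuclear proteasome activator, was the only gene of the pathway lists called between the arms: it was different by -1.62 on the log2 scale at weaning, amoxicillin minus control (limma, adjusted p = 8.43e-04), and by -1.70 without the pair (adjusted p = 0.00478).

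The other peptide loading and chaperone genes moved differently. Of 4 tested, the chaperone calreticulin (CALR, 1.03) and the disulfide isomerase PDIA4 (0.80) rose across weaning, while CANX and HSP90B1 did not pass. CALR then fell by 1.06 to 4 wk postweaning (adjusted p = 0.0448) and lay 0.82 below day 1 at the end (adjusted p = 0.034), so it shared the step across weaning with the members but not the end level. Of the B2M partners only FCGRT, the neonatal Fc receptor heavy chain, was tested, and it passed in no step (0.30 across weaning, adjusted p = 0.139).

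Some regulators and interferon-stimulated genes rose across weaning, the step at which 3 members rose. Many calls of the interferon-stimulated genes were lost without the pair of weaning arrays that stood apart. Leaving out the pair also lowers the number of weaning arrays, and the part of this in the lost calls was not tested. IRF1, a transcription factor of class I genes, rose by 1.02 (SE 0.25, adjusted p = 0.00703), and IFNGR1, a chain of the interferon gamma receptor, by 0.72 (SE 0.22, adjusted p = 0.0246). Without the pair IRF1 rose by 0.73 (adjusted p = 0.0457) and IFNGR1 did not pass (0.59, adjusted p = 0.0773). The remaining 4 of the 6 regulators described, JAK1, JAK2, NFKB1 and IFNGR2, did not pass, and the median over the 6 was 0.23. Of 15 interferon-stimulated genes, 13 rose across weaning (limma), with a median of 1.74, and GBP1 and ISG15 did not pass. Without the pair of weaning arrays 6 of the 13 passed, with a median of 1.36 over the 15. The largest differences were OASL at 3.63 and CXCL10 at 3.15, and these were 4.02 (adjusted p = 0.00362) and 3.05 (adjusted p = 9.68e-04) without the pair. From day 1 to day 7 only IFIT1 and ISG15 rose, from day 7 to weaning none did, and from 4 d to 4 wk postweaning none passed, with a median of -0.88 and 1 of 15 higher. Over the same last step the median of the 3 never saturated members was 0.15. Of the 2 tested class I receptors, KLRK1, which encodes the activating receptor NKG2D, rose by 1.57 and CD8A, the coreceptor for class I, by 0.72 in the first week, and CD8A by 1.42 in the last step. CD8A exceeded the filter threshold on only 10 of 43 arrays, so its differences include values near the floor.

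**Figure D5:**
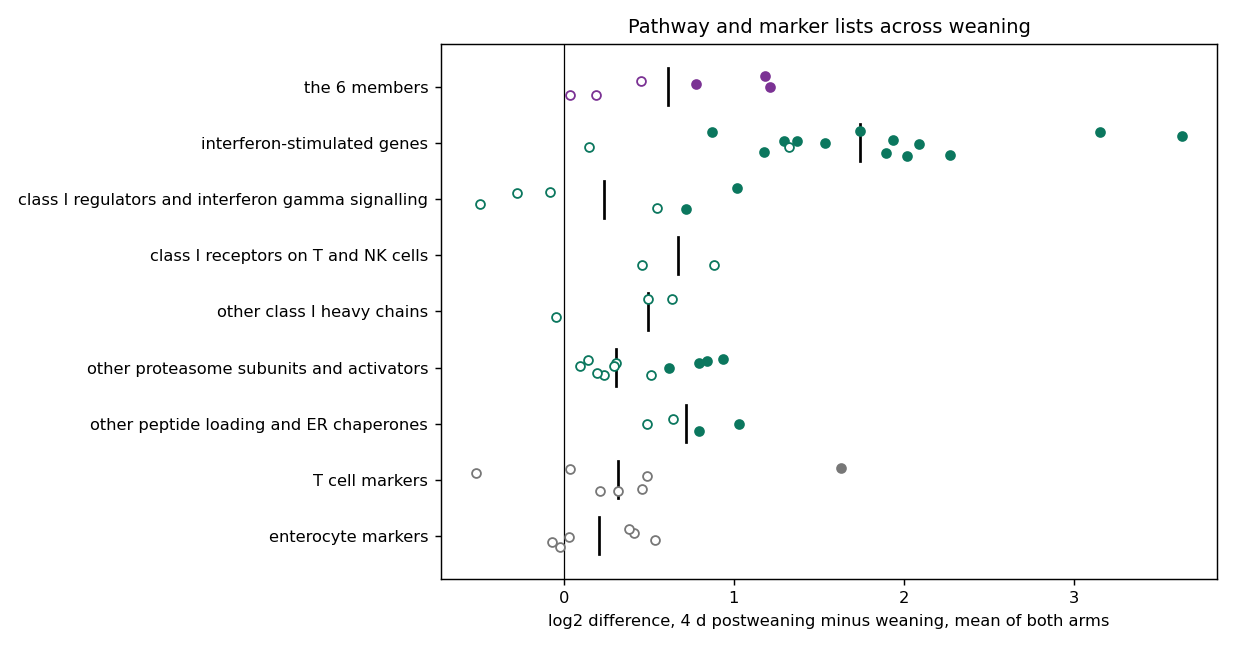
Log2 difference between 4 d postweaning and weaning as the mean of both arms (horizontal axis), 1 point per gene, for the 6 members, 6 pathway lists and 2 marker lists. Filled points passed an adjusted p of 0.05 and bars are medians. The interferon-stimulated genes, 13 of 15 filled, lie furthest to the right, with a median of 1.74 against 0.61 for the members, 3 of which were held at or near the ceiling. Without the pair of weaning arrays that stood apart, 6 of the 15 passed.

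Markers of other cell types also changed with age, in part at other steps than the members. Of 10 T cell markers 8 had a probe and 7 were tested, and CD4 stayed below the filter threshold on all arrays. CD8A and CD3D exceeded it on only 10 and 11 of 43 arrays. The mean log2 intensity of the 8 was 6.56 at day 1, below the threshold of 7.68, so rises from day 1 start near the floor. Their summed linear intensity was 743 to 1325 at day 1, 1520 to 4683 at day 7, 2645 to 7531 at weaning, 2756 to 12584 at 4 d postweaning and 7092 to 15650 at 4 wk postweaning. All 7 rose over the whole span, 6 of them already from day 1 to day 7 (CD3E by 2.32, CD2 by 1.80, CD3G by 1.65 and LCK by 1.14 among them), the step in which SLA-3 was called, while across weaning CD2 alone passed (1.63, and 1.31 without the pair of weaning arrays that stood apart). Of 7 myeloid markers 4 had a probe and 3 were tested, and 2 of these, AIF1 and LYZ, rose in the first week and 2, CD163 and LYZ, across weaning, while LYZ fell by 2.81 in between. Without the pair the later steps of LYZ did not pass (-2.02, adjusted p = 0.146, and 2.05, adjusted p = 0.0929). None of 6 enterocyte markers passed across weaning. However, ANPEP, FABP2, APOA1, FABP1 and APOA4 had median log2 intensities of 15.565 to 15.999 over the 43 arrays. That is near the ceiling, so a rise in them could hardly be seen. Of 3 endothelial markers tested, PECAM1 and CDH5 fell from day 7 to weaning (by 0.90 and 1.31) and over the whole span (by 1.51 and 1.23), and VWF did not pass. Their summed intensity had a median of 1884 at day 1 and 862 at 4 wk postweaning. Of 3 smooth muscle markers DES fell across weaning (by 1.04, adjusted p = 0.0384), when their sum had a median of 10167 at weaning and 4936 at 4 d postweaning, and CNN1 rose in the last step (1.29, adjusted p = 0.0491). The part of these cells in the rise of the members was not tested.

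The members other than B2M varied together over the 43 arrays, which share age, arm, slide and normalization. The values of PSMB9 after weaning and of SLA-3 are held by the ceiling, so correlations with them are limited by it. Pearson's r was 0.88 between PSMB8 and PSMB9, 0.86 between TAP1 and TAP2, 0.86 between TAP1 and PSMB9 and 0.83 between TAP1 and SLA-3. After the mean of each group of arm and age was taken away, r was 0.70 between TAP1 and TAP2, 0.65 between PSMB8 and PSMB9, 0.52 between TAP1 and SLA-3, and 0.29 between TAP1 and PSMB9, so the transporter subunits, which were never saturated, also varied together among piglets of a group. The mean of the 5 members without B2M had an r of 0.86 with the T cell markers and 0.78 with the interferon-stimulated genes, and 0.51 and 0.32 within groups. These were not particular: r was 0.85 with the class I receptors, 0.77 with the other heavy chains and 0.66 with the myeloid markers. Within groups these 3 gave 0.31, 0.52 and 0.46, and the regulators gave 0.45. With the enterocyte markers r was 0.23, and with the other loading and chaperone genes 0.02. With the endothelial markers r was -0.55, and 0.26 within groups.

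Among 1852 named genes that are no members, those whose values over the 43 arrays were most like the mean of the standardized members were TNFSF13 (r = 0.89), a B cell survival factor also called APRIL, PIGR (r = 0.88), the receptor that carries IgA through the epithelium, CD86 (r = 0.88), a costimulatory ligand of antigen-presenting cells, LAG3 (r = 0.87), an inhibitory receptor of T cells, and DOK2 (r = 0.84), an adaptor of blood cell signalling. PIGR had the widest course of these, from a mean log2 intensity of 6.33 ± 1.47 (SD, n = 10) at day 1 to 13.02 ± 1.16 (n = 7) at 4 wk postweaning. Its day 1 mean lay below the filter threshold of 7.68, as did those of CD86 (7.12) and LAG3 (7.16). The courses of these genes therefore start near the floor. TNFSF13 went from 8.07 ± 0.57 to 11.07 ± 0.78. The arrays share their ages, and these correlations are descriptions only.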

How the data were processed

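The authors deposited linear spot intensities from Agilent Feature Extraction 10.7.3.1, with local background and flags, and a table of log2 values made with limma in R 3.0.2 (normexp at an offset of 1, quantile normalization). Applying these steps to the median intensity gave that table within 5e-09. Outlier-flagged spots were left out, though no member spot carried a flag, and probes of an accession were averaged. An accession was tested if it exceeded 1.1 times the brightest unflagged dark spot (6.98, giving 7.68 on the log2 scale) on all arrays of 1 or more groups (12771 did). All 43 arrays were fitted as 10 groups with limma 3.58.1 in R 4.3.3, with Benjamini-Hochberg adjustment over all accessions tested. Differences between ages weight both arms equally. Precision is limited by the number of arrays.

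A few listed genes are not reported here. Symbols were joined by transcript accession from the RefSeq gene table of assembly Sscrofa11.1. Members, lists and thresholds were chosen with earlier results of these data known. From the lists, genes called in a comparison or at the end of a list are named, and the 5 most like genes were picked by Pearson's r over 43 arrays. Some uncalled genes of short lists were named after their values were seen. Each array is 1 piglet, so p-values measure the spread between piglets. By the paper's design piglets of different ages can share a sow, and the sows came in several batches. The labels give neither, so no fit held a term for sow or batch. Control day 1 holds piglets labelled 19 and 19B, and how these relate is not stated. Slides are the slot numbers in the names of the scans, and whether a slot was 1 physical slide was not checked. Alternatives were other scalings, offsets, filters, flags, probe handling, the authors' table, slide, piglet number, single ages, fold thresholds, array weights and leaving out each array.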

Additional observations from a re-analysis of the deposited data

Results flagged for a closer look

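Only B2M held values far from the others of their group, by a gap test that chance passes in about 1 of 20 groups: 4 of 48 groups of 4 to 6 arrays were marked (8.33%), all of B2M and all from arrays with both probes saturated. These were the lowest arrays of control day 1 (piglet 20, 15.9986 against 15.9992 to 15.9993), control 4 d postweaning (piglet 10, 15.9034 against 15.9772 to 15.9987), amoxicillin day 1 (piglet 2, 15.6811 against 15.9566 to 15.9928) and amoxicillin 4 wk postweaning (piglet 40, 15.9666 against 15.9991 to 15.9993). A saturated spot holds only a lower bound, so these gaps give no order of transcript levels. In the F-test for a treatment difference that changes with age the smallest adjusted p of a member was 0.512 (TAP2), and the ceiling limits that test for B2M, SLA-3 and PSMB9.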

How the results depend on the processing

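Limits. Saturation bounds SLA-3, PSMB9 and B2M, slide and treatment cannot be told apart, and groups hold 3 to 6 arrays. No call turned its direction under any alternative. The treatment counts were 0 at all 5 ages under every alternative and without any single array, and so was the count for a treatment difference that changes with age; for TAP1 at weaning the adjusted p ran from 0.0401 with the replicate block (1.40, below the fold threshold) to 0.571 with array weights (0.58), and from 0.139 to 0.577 without single arrays. The treatment comparisons could not be fitted with slide as a fixed block, since no slide holds both arms. With the slide as a random block the 5 F-test calls of the control arm held, and TAP2 was lost in the amoxicillin arm (adjusted p = 0.188). With the highest dark spot taken from flagged spots too, TAP2 was not tested.

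The counts that follow are of members alone, without the share of all genes called under each alternative. The count of members differing between the 5 ages, 5 in each arm, fell to 0 (control) and 1 (amoxicillin) with slide as fixed block and to 0 and 0 with the piglet number as a replicate block. From day 1 to day 7 the count of 1 became 0 at a common 75th percentile, with the processed signal, with the fixed slide block and with the replicate block, and 2 with array weights. From day 7 to weaning the count of 1 became 0 without a filter, with random or fixed slide blocks, with the replicate block and without both weaning arrays with high B cell markers, and 2 with 1 value per probe name and with array weights. Across weaning the count of 3 became 2 at a common 75th percentile and with the processed signal, where PSMB9 was lost, and 0 with the replicate block. Over the whole span the count of 5 became 1 with the fixed slide block and 0 with the replicate block. Leaving out single arrays gave counts of 1 to 2, 0 to 3, 3 to 3, 0 to 0 and 5 to 5 for the 4 steps and the whole span, 5 to 5 and 4 to 5 for the F-tests of the control and amoxicillin arms, and 0 to 0 for all treatment counts.

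The labels do not say what a shared piglet number means. For 10 pairs of the same number and age, r of the deviations from the group means ran from -0.27 to 0.44, over 0.1 in 4. Those values do not settle whether the numbers pair the arrays. The replicate block with 27 piglet numbers left 7 residual degrees of freedom, against 33. A common 75th percentile moved the median of all genes in the treatment comparison at weaning by 0.10, from -0.07 to 0.03. The alternatives on saturated probes and on the weaning arrays, the latter also for the gene lists, were chosen after seeing the data.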
